A study of Mus musculus with 40 samples.

Results

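The miR-130 and miR-301 family was examined in small RNA libraries from the hippocampal CA1 region of 40 mice. The family comprised 4 mature miRNAs of the mouse, mmu-miR-130a-3p, mmu-miR-130b-3p, mmu-miR-301a-3p and mmu-miR-301b-3p, which were chosen by name from the 1978 mature miRNAs in the count table. Each was listed with 1 precursor, and all 4 were detected. They were weakly expressed. Over the 40 libraries miR-130a-3p received 10761 counts, miR-301a-3p 1504, miR-130b-3p 588 and miR-301b-3p 210. In rank of mean level among the 1695 detected miRNAs, miR-130a-3p was number 305, miR-301a-3p 493, miR-130b-3p 588 and miR-301b-3p 732.

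The libraries came from wild-type control (WT) mice and from mice with a CaMKIIδC transgene (TG), which overexpress the δC form of calcium/calmodulin-dependent protein kinase II and serve as a model of heart failure. There were 5 WT and 9 TG mice at 3 months of age, and 15 WT and 11 TG mice at 6 months of age, with 1 library per mouse. TG and WT mice were littermates on a C57Bl/6J background, and both sexes were used. The promoter that drives the transgene was not given in the sources used here. The sample title and the genotype field contradict each other for 3-month-old WT mice 1 and 2, which are TG in that field, and these mice were grouped by title. The numbers of TG mice at each age that the study states differ from those of the libraries used here, all of which were kept in the group of their title. The design asks how hippocampal miRNA levels differ between the genotypes at each age and between the ages in each genotype.

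A miRNA is cut from a hairpin precursor, whose 5p and 3p arms can each be loaded into an Argonaute protein. The loaded arm pairs with mRNAs mainly through its seed, bases 2 to 8, and lowers their translation or stability. Members of the miR-130 and miR-301 family share a seed on the 3p arm and therefore overlap in the mRNAs they can bind. The family is known for roles in blood vessels and in control of PPARγ, a nuclear receptor of lipid metabolism.

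The mature sequences show what the family shares and where the members part. They were taken from RefSeq (GRCm38.p6), in which 7 of the 8 members and opposite arms were matched. Capitals mark the seed.
miR-130a-3p: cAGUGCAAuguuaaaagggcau
miR-130b-3p: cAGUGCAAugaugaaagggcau
miR-301a-3p: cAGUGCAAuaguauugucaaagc
These 3 members carry the same seed, AGUGCAA. Counted from 1 at the 5′ end, miR-130a-3p and miR-130b-3p differ at 2 of 22 bases, U11A and A13G. miR-301a-3p differs from miR-130a-3p at 10 of the 22 bases compared, all beyond base 9, so that the relation of miR-301a to the miR-130 members lies in the 5′ part of the molecule.

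The opposite arms are shown because they were more abundant than the 3p arm for part of the family.
miR-130a-5p: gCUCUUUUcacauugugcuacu
miR-130b-5p: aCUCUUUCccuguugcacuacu
miR-301a-5p: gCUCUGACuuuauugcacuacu
miR-301b-5p: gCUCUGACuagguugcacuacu
The 5p arms of miR-301a and miR-301b share the seed CUCUGAC and differ at 3 of 22 bases, U10A, U11G and A12G. The 5p arms of miR-130a and miR-130b have seeds of their own, which differ by U8C.

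The hairpins below carry both arms in capitals, with the loop and flanks in lower case.
Mir130a: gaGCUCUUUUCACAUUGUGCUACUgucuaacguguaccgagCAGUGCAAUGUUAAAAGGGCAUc
Mir130b: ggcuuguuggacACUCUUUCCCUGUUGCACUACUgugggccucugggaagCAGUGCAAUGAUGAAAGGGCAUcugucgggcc
Mir301: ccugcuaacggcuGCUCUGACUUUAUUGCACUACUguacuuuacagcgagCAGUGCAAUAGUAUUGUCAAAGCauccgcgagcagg
Mir130a lies at chr2:84741115-84741178 on the minus strand (GRCm38) between genes, 991 bases from the nearest one, Gm19426. Mir301, the hairpin of miR-301a, lies at chr11:87113004-87113089 on the plus strand in an intron of Ska2, a spindle and kinetochore gene transcribed in the same direction. Mir130b, at chr16:17124061-17124142, and Mir301b, at chr16:17124400-17124496, lie on the minus strand in an intron of 2610318N02Rik, with 257 bases between them, so that 2 of the 4 members sit side by side.

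Total counts per library ranged from 2656368 to 36547011, and counts on miRNAs from 1926108 to 22892729. The median of the miRNA counts was 14340558 in 3-month-old WT and 18431486 in 3-month-old TG mice, against 9893109 in 6-month-old WT and 9239179 in 6-month-old TG mice, so that the younger mice were sequenced more deeply. Levels are given as CPM, the number of counts out of 1000000 after scaling by the trimmed mean of M values (TMM). The smallest level the depth can show, 3 counts, corresponded to 0.0956 to 2.32 CPM on this scale. This floor and the intervals given for shares of counts cover counting error only, since the reads carry no molecular identifiers.

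miR-130a-3p was the most abundant member in all 40 libraries, and its groups overlapped throughout. In the 5 WT mice at 3 months its level was 23.8, 21.6, 13.6, 12.5 and 23.0 CPM. In TG mice at 3 months it ranged from 12.7 to 27.5 CPM with a median of 22.3. At 6 months it ranged from 12.3 to 26.8 CPM with a median of 20.8 in WT mice, and from 10.5 to 25.7 CPM with a median of 18.4 in TG mice. The group means ± SD were 18.9 ± 5.40 CPM (n = 5) and 21.6 ± 4.86 CPM (n = 9) at 3 months and 20.1 ± 4.91 CPM (n = 15) and 18.0 ± 4.31 CPM (n = 11) at 6 months, for WT and TG mice. No group mean lay more than 1 SD from another, and 9 of the 11 TG mice at 6 months were below the mean of the TG mice at 3 months.

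miR-301a-3p, the member from the Ska2 intron, was second in 34 of the 40 libraries. In the 5 WT mice at 3 months it reached 3.36, 4.22, 2.05, 1.43 and 2.88 CPM, and in TG mice at 3 months it ranged from 0.888 to 5.14 CPM with a median of 3.59. At 6 months it ranged from 0 to 3.65 CPM with a median of 2.31 in WT mice, and from 0 to 3.67 CPM with a median of 1.87 in TG mice. The means ± SD were 2.79 ± 1.09 and 3.31 ± 1.50 CPM at 3 months and 2.22 ± 1.11 and 1.96 ± 1.01 CPM at 6 months. The mean was lower at the later age in both genotypes, and 10 of the 11 TG mice at 6 months were below the mean of TG mice at 3 months, but the ranges overlapped. The highest values of WT mice at 3 months, 3.36 and 4.22 CPM, were those of mice 1 and 2, whose genotype field is TG. The others were at 2.05, 1.43 and 2.88 CPM. The 2 libraries without a count were the shallowest of each genotype, 6-month-old WT mouse 5 and TG mouse 9, whose 3-count floors were 2.32 and 2.10 CPM, so that levels up to about the median of their groups were not detectable in them.

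miR-130b-3p was present in all 40 libraries, with 1 to 42 counts each. In the 5 WT mice at 3 months its level was 0.720, 1.11, 1.03, 1.22 and 0.992 CPM, and in TG mice at 3 months it ranged from 0.759 to 1.62 CPM with a median of 1.31. At 6 months the medians were 1.04 CPM in WT mice (0.463 to 4.06) and 0.886 CPM in TG mice (0.453 to 2.10). The highest value, 4.06 CPM, came from 6-month-old WT mouse 4, whose library held 4238710 counts in total, among the 3 shallowest. The means ± SD were 1.01 ± 0.186 and 1.29 ± 0.255 CPM at 3 months and 1.23 ± 0.843 and 1.09 ± 0.499 CPM at 6 months, for WT and TG mice. At 3 months the gap between the means exceeded the SD of each group and 8 of the 9 TG mice were above the WT mean, but the ranges overlapped. miR-130b-3p exceeded miR-301a-3p in 6 of the 40 libraries.

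miR-301b-3p was the weakest member and was lower than miR-130b-3p, its neighbour in the genome, in all 40 libraries. It had at most 17 counts, and 11 libraries had fewer than 3. In the WT mice at 3 months it was at 0.480, 0.384, 0.257, 0.159 and 0.811 CPM, and in the other groups the medians were 0.438 CPM in TG mice at 3 months, 0.342 CPM in WT and 0.483 CPM in TG mice at 6 months. In 4 of the 6-month-old mice it had no count, which at their depth allows levels of up to 0.813 to 2.32 CPM. At these counts a difference between groups of this size was not detectable.

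**Figure D1:**
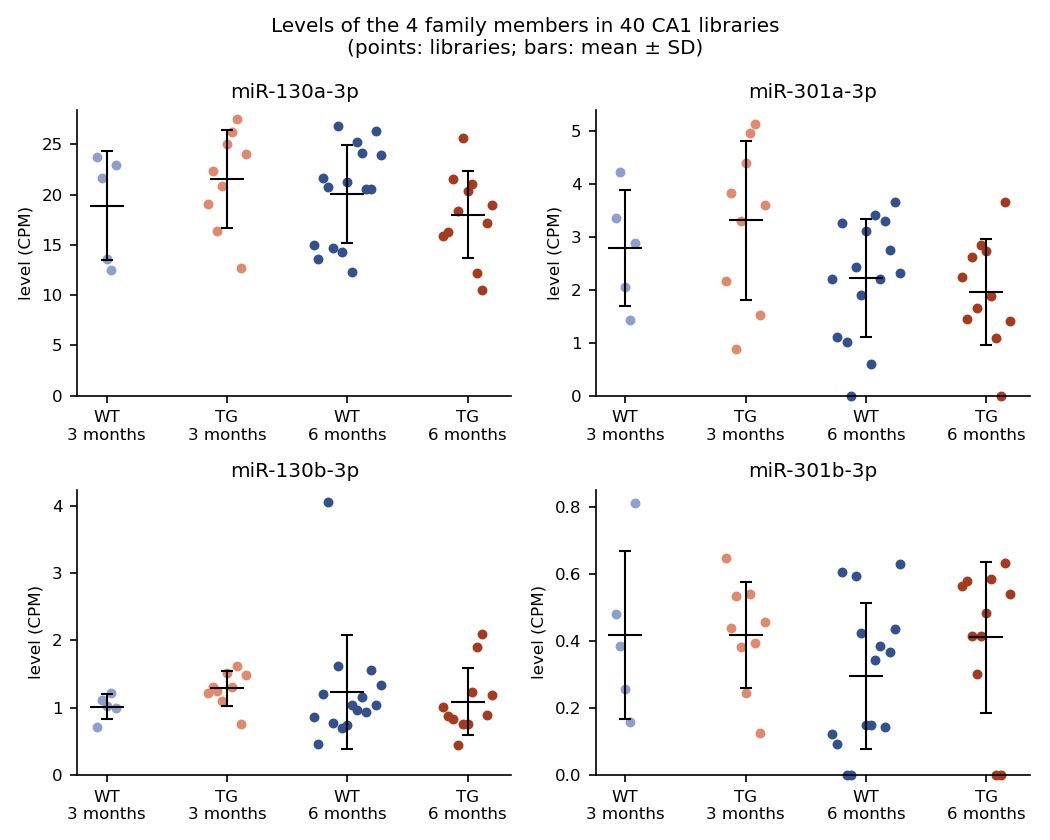
Level of each family member in CPM (linear vertical axes that start at 0) by genotype and age, with 1 point per library and bars for the mean ± SD of each group (n = 5, 9, 15 and 11). The 4 members differ in scale from about 19.7 CPM for miR-130a-3p to 0.370 CPM for miR-301b-3p on average, and within each panel the groups overlap.

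The summed level of the 4 members was dominated by miR-130a-3p. As a mean over the 40 libraries, miR-130a-3p made up 83.3% of the family's counts, miR-301a-3p 9.89%, miR-130b-3p 5.27% and miR-301b-3p 1.52%. The share of miR-130a-3p was 81.6% ± 1.97 and 81.6% ± 2.25 at 3 months and 84.7% ± 3.74 and 83.7% ± 3.27 at 6 months (SD, WT and TG mice). The share of miR-301a-3p was 11.8% ± 2.31 and 11.9% ± 3.35 at 3 months and 8.94% ± 3.84 and 8.69% ± 4.04 at 6 months, with medians of 11.9% and 12.9% at 3 months and 10.9% and 7.97% at 6 months. The difference between the ages was thus smaller by the median than by the mean in WT mice, and larger by the median in TG mice. In each genotype 1 older library had no count of miR-301a-3p. The summed family level was 23.1 ± 6.42 and 26.6 ± 6.54 CPM at 3 months and 23.8 ± 6.09 and 21.5 ± 4.80 CPM at 6 months.

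Which arm of the hairpin was recovered differed between the members. Of the counts on the miR-130a hairpin, 98.8% (exact binomial interval 98.6% to 99.0%) came from the 3p arm. Of those on the miR-130b hairpin, 3.22% (2.97% to 3.49%) did, although both 3p arms share 20 of 22 bases. The miR-301a hairpin gave 26.3% (25.2% to 27.5%) and the miR-301b hairpin 55.9% (50.7% to 60.9%) on the 3p arm, at 95% confidence and pooled over the 40 libraries, which gives deep libraries more weight. As a mean over libraries the 3p share of miR-301a was 22.8%. That of miR-301b, pooled by group, was 56.6% in WT and 66.7% in TG mice at 3 months and 40.4% in WT and 67.1% in TG mice at 6 months. The 4 hairpins thus ranged from nearly pure 3p to nearly pure 5p.

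The most abundant product of these 4 hairpins was the opposite arm miR-130b-5p, at a mean of 36.7 CPM. It exceeded miR-130a-3p in 38 of the 40 libraries, and the other 2 were TG mice at 3 months. miR-301a-5p, at a mean of 7.82 CPM, exceeded miR-301a-3p in all 40 libraries. miR-130a-5p and miR-301b-5p had means of 0.221 and 0.334 CPM. The contrast between miR-130a and miR-130b held in every library: the 3p share was at least 95.3% for miR-130a and at most 9.20% for miR-130b.

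**Figure D2:**
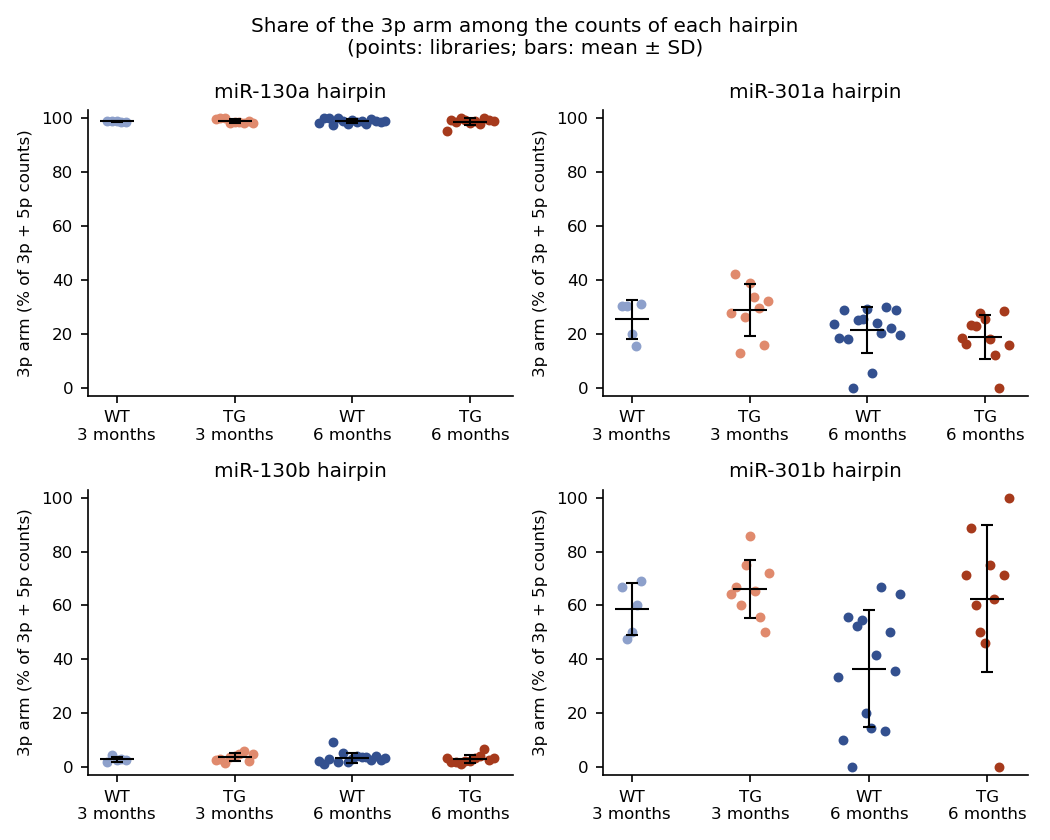
Share of the 3p arm in percent of the 3p and 5p counts of each hairpin (vertical axes from 0 to 100), by genotype and age, with 1 point per library that had a count and bars for the mean ± SD of each group. The miR-130a hairpin lies at 95.3% or above and the miR-130b hairpin at 9.20% or below in all libraries, and the miR-301a hairpin lies between 0 and 42.2%. The miR-301b hairpin, with 376 counts in all, spreads from 0 to 100%.

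Between 3 and 6 months in TG mice, none of the 3 members that passed the low-count filter was altered by edgeR's quasi-likelihood test (adjusted p under 0.05 and absolute log2FC above 0.26). The same test called 99 of 629 miRNAs, or 15.7%, in this comparison. All 3 estimates were below 0. The log2FC of miR-301a-3p was −0.69 (SE 0.31, approximate 95% interval −1.29 to −0.08, p = 0.0366, adjusted p = 0.130), while 32.4% of all miRNAs tested had an unadjusted p under 0.05. That of miR-130b-3p was −0.37 (SE 0.23, −0.81 to 0.07, adjusted p = 0.251) and that of miR-130a-3p −0.24 (SE 0.17, −0.57 to 0.09, adjusted p = 0.324). The median of the 3 members was −0.37, beside −0.09 over all miRNAs tested, and 56.9% of all miRNAs tested were below 0. The opposite arms from the same hairpins had log2FC values at 0, 0.03 for miR-130b-5p (SE 0.18) and −0.0003 for miR-301a-5p (SE 0.18).

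The values of miR-301a-3p and miR-130a-3p in this comparison depended on the model. DESeq2 with 1 factor of unwanted variation estimated from residuals (RUVr) gave miR-301a-3p the same log2FC of −0.69 with an adjusted p of 0.00267. This fit called miR-301a-3p lower, and it called 302 of the 629 miRNAs, or 48.0%. With 2 such factors the adjusted p of miR-301a-3p was 0.00183 and 49.6% of the miRNAs were called. Without the factors DESeq2 called no member and 22.9% of the miRNAs. With the log2 of each library's miRNA counts as a covariate, an alternative chosen after the data were seen, edgeR gave miR-301a-3p a log2FC of −0.19 (SE 0.33, adjusted p = 0.769) and miR-130a-3p 0.047 (SE 0.15, adjusted p = 0.886). Over the 13 alternatives other than leaving out single libraries, the adjusted p of miR-301a-3p by edgeR or DESeq2 ranged from 0.00183 to 0.769. For miR-130a-3p it ranged from 0.0314 to 0.886 over 14 such alternatives, with a log2FC from −0.50 to 0.047 and no call. Age and depth went together in these libraries, and no sequencing batch is given by the labels.

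In WT mice, no member was altered between 3 and 6 months, where edgeR's test called 1 of 660 miRNAs, or 0.152%, and 15.5% had an unadjusted p under 0.05. The log2FC was 0.09 for miR-130a-3p (SE 0.21, interval −0.32 to 0.49, adjusted p = 0.874), 0.13 for miR-130b-3p (SE 0.30, −0.46 to 0.73, adjusted p = 0.913) and −0.24 for miR-301a-3p (SE 0.33, −0.89 to 0.41, adjusted p = 0.759). The intervals span changes of either sign, and 51.8% of all miRNAs tested were below 0. Without 3-month-old WT mice 1 and 2, whose genotype field is TG, the log2FC of miR-301a-3p was 0.17.

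No member was called between TG and WT mice at either age by edgeR's test. Each group enters 1 comparison of ages and 1 of genotypes, so that these comparisons share mice with those of the ages. At 3 months it called 0 of 695 miRNAs (0.00%), and 7 (1.01%) were at p under 0.05 before adjustment. The 3 members had log2FC values of 0.16 (SE 0.25) for miR-130a-3p, 0.31 (SE 0.25) for miR-130b-3p and 0.25 (SE 0.40) for miR-301a-3p, each with an adjusted p of 0.998. At 6 months it called 0 of 612 miRNAs (0.00%), and 3 (0.490%) were at p under 0.05 before adjustment. The values were −0.16 (SE 0.14), −0.21 (SE 0.25) and −0.19 (SE 0.27), each with an adjusted p of 0.992. All 3 members were thus above 0 at 3 months and below 0 at 6 months, with no call in either comparison. Of all miRNAs tested, 44.5% were below 0 at 3 months and 52.6% at 6 months.

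The difference between the genotypes in the effect of age was tested as an interaction over all 40 libraries. It was −0.35 (SE 0.26, interval −0.86 to 0.17) for miR-130a-3p, −0.53 (SE 0.37, −1.25 to 0.19) for miR-130b-3p and −0.45 (SE 0.47, −1.37 to 0.47) for miR-301a-3p, each with an adjusted p of 0.986 by edgeR's test. It called 0 of 699 miRNAs (0.00%), with 14 (2.00%) at p under 0.05 before adjustment, and 60.5% of all estimates were below 0. The lower estimates in TG than in WT mice were therefore not told apart from 0, with unadjusted p of 0.195, 0.155 and 0.339 by edgeR's test. The intervals reach down to a difference of −1.37, so that sizeable differences were not detectable at this depth and group size.

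**Figure D3:**
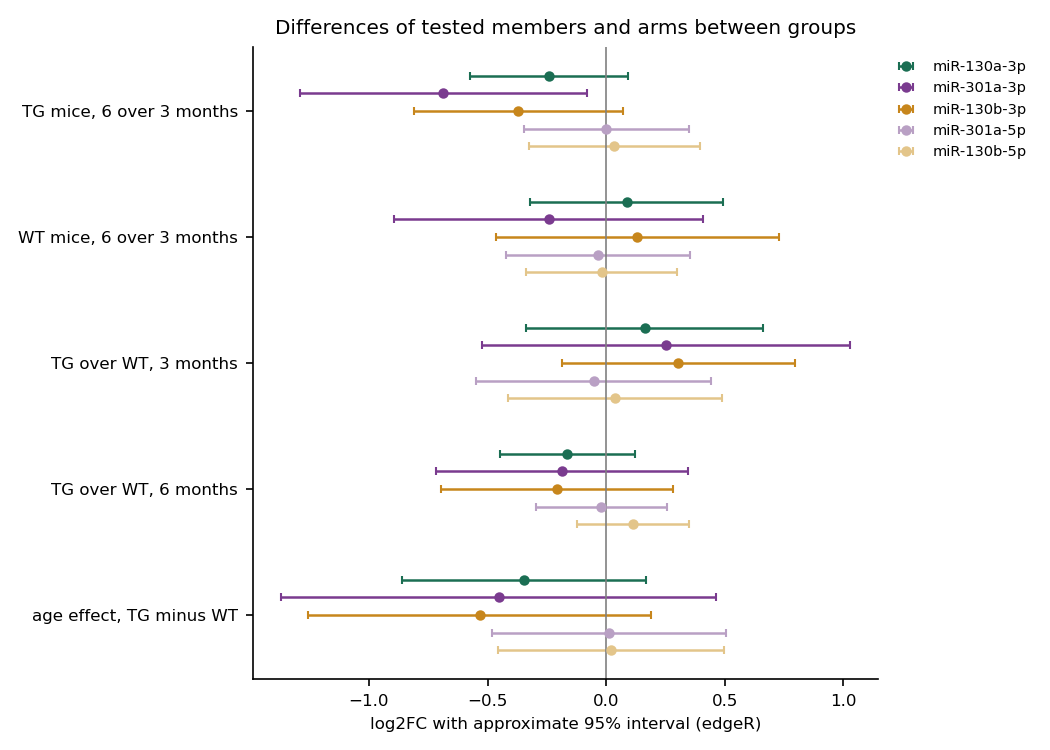
Log2FC of the 3 tested members and 2 tested opposite arms in the 4 group comparisons and the interaction (horizontal axis, points with approximate 95% intervals). The interval of miR-301a-3p between ages in TG mice, −1.29 to −0.08, is the only one that leaves out 0, and its adjusted p was 0.130.

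miR-301b-3p did not pass the filter in any comparison. In a fit of all miRNAs with a count its log2FC was 0.09 (SE 0.37) between ages in TG mice and −0.26 (SE 0.47) in WT mice, and between genotypes 0.09 (SE 0.46) at 3 months and 0.41 (SE 0.37) at 6 months. The standard errors exceeded 0.36 in each of these, so that only large changes of this member could have been seen. Its opposite arm, miR-301b-5p, had a log2FC of −1.13 (SE 0.39, p = 0.00539) between TG and WT mice at 6 months, with an adjusted p of 0.768 over the 1598 miRNAs of that fit by edgeR's test.

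Ratios of 2 miRNAs within a library depend less on the scaling between libraries. A prior count scaled to library size was added to both, so that in libraries with no or few counts the ratio was set largely by the prior and the depth. In 24 permutation tests of 6 such ratios in the 4 comparisons, all two-sided, no ratio differed at an adjusted p under 0.05. The ratio of miR-301b-3p to miR-130b-3p, whose hairpins are neighbours, averaged −1.12 ± 0.77 and −1.36 ± 0.40 on the log2 scale at 3 months and −1.64 ± 1.00 and −1.22 ± 1.28 at 6 months (SD, WT and TG mice), with adjusted p from 0.772 to 0.854. The ratio of miR-301a-3p to miR-130a-3p, from separate loci, averaged lower at 6 than at 3 months in both genotypes, with differences of −0.58 ± 0.34 (SE, p = 0.0910) in TG and −0.62 ± 0.29 (p = 0.0774) in WT mice, both with an adjusted p of 0.437 by the exact permutation test. The medians were −2.77 at 3 and −2.83 at 6 months in WT mice, and −2.60 and −3.32 in TG mice. Without the 3 shallowest libraries, the differences were −0.31 in TG and −0.30 in WT mice (adjusted p = 0.658 each, exact permutation test). Between genotypes it differed by −0.05 at 3 months and −0.01 at 6 months.

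The ratio of the arms of 1 hairpin gave the lowest p-values of these tests, which were chosen after the counts had been seen. The log2 ratio of miR-301b-3p to miR-301b-5p was −0.58 ± 0.97 in WT and 0.55 ± 0.97 in TG mice at 6 months, a difference of 1.13 (SE 0.39, p = 0.00698, adjusted p = 0.168, permutation test with 100000 resamples). Its counts were small, 55 of 136 on the 3p arm in the WT mice and 53 of 79 in the TG mice. In 1 library of each group neither arm had a count, so that its ratio came from the prior alone, and without these 2 libraries the difference was 1.23 (SE 0.42, adjusted p = 0.173, permutation test). From 3 to 6 months the ratio of the miR-301b arms differed by −0.93 in WT mice (SE 0.32, p = 0.0391, adjusted p = 0.313, exact permutation test). In TG mice it differed by −0.06 (SE 0.31, adjusted p = 0.964, exact permutation test). The log2 ratio of miR-301a-3p to miR-301a-5p was −1.33 ± 0.71 at 3 and −2.17 ± 1.04 at 6 months in TG mice, a difference of −0.85 (SE 0.39, p = 0.0304, adjusted p = 0.313, exact permutation test), and −0.56 without the 3 shallowest libraries. None of these differences passed the correction for 24 tests.

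Within the groups other than WT mice at 3 months, the levels of miR-130a-3p and miR-301a-3p were compared with the depth of the library. By Pearson's r they were related to depth in part of these groups, and by rank no relation passed the adjustment. Over the 9 TG mice at 3 months, Pearson's r of log2 CPM with the log2 of the library's miRNA counts was 0.83 for miR-130a-3p (Spearman's rho 0.75) and 0.80 for miR-301a-3p (rho 0.65). Over the 11 TG mice at 6 months r was 0.80 (rho 0.53) and 0.80 (rho 0.38), and over the 15 WT mice at 6 months 0.26 (rho 0.23) and 0.74 (rho 0.33). The adjusted permutation p of r over the 6 relations was 0.0316, 0.0348, 0.0316, 0.0518, 0.342 and 0.0316 in that order, and that of rho was at least 0.153. Without the 2 libraries farthest from the median depth, r lay between −0.23 and 0.42. Leaving them out also narrows the range of depth, so that the lower r does not show that the relation rested on them. With neither measure on a log scale, r in the 6-month-old TG mice was 0.65 for miR-130a-3p and 0.44 for miR-301a-3p. The relation was chosen after the values were seen, and its part in the comparison of ages was not tested beyond the fit with depth as a covariate.

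**Figure D4:**
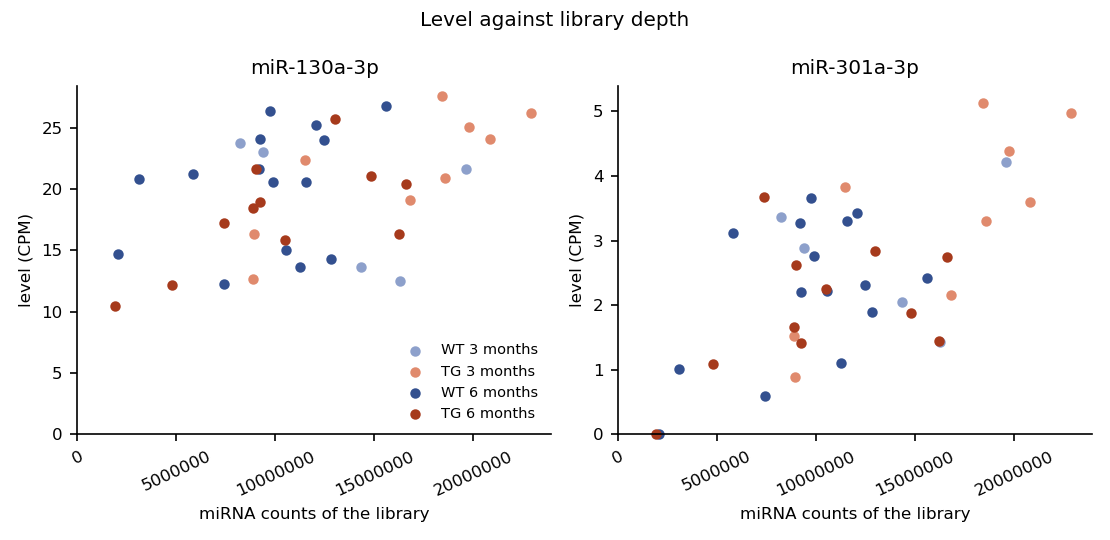
Level of miR-130a-3p and miR-301a-3p in CPM (vertical axes) against the miRNA counts of each library (horizontal axes, all linear), with 1 point per library coloured by genotype and age. The 2 libraries without a miR-301a-3p count are the shallowest ones, and the deepest libraries are those of 3-month-old TG mice and of 1 WT mouse of that age.

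Across the 40 libraries, after subtraction of the group means, 3 of the 4 members varied together. The correlation of log2 CPM was 0.70 between miR-130a-3p and miR-301a-3p, 0.62 between miR-130a-3p and miR-301b-3p and 0.63 between miR-301a-3p and miR-301b-3p (Spearman's rho 0.69, 0.52 and 0.44). miR-130b-3p had correlations of 0.07 with miR-130a-3p, −0.15 with miR-301a-3p and −0.21 with miR-301b-3p, with rho of 0.16, −0.04 and 0.09, so that the last changed sign with the measure. These are descriptions over libraries that also share differences in depth.

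The miRNAs with the most similar pattern were named for each member among those with a mean of at least 10 CPM. miR-376a-3p, from the large imprinted miRNA cluster of the Dlk1-Dio3 locus, was among the top 3 for miR-130a-3p (r = 0.80), miR-301a-3p (r = 0.88) and miR-301b-3p (r = 0.64). The others were miR-29a-3p and miR-151-5p for miR-130a-3p (both r = 0.80), miR-15a-5p (0.85) and miR-3068-5p (0.83) for miR-301a-3p, and miR-770-5p (0.65) and miR-107-3p (0.64) for miR-301b-3p. No miRNA resembled miR-130b-3p closely, and its highest value was 0.34, with miR-3535. The median count per library was 11.5 for miR-130b-3p and 5 for miR-301b-3p, and the part of counting error in these correlations was not tested.

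The seed of the family was searched for in the mature sequences of RefSeq. Besides the 3 members shown, 4 miRNAs of the count table carry AGUGCAA at bases 2 to 8. miR-130c, miR-6341 and miR-721 had 0 counts in all 40 libraries, and miR-6389 had 19, with no more than 2 in a library. Among the matched miRNAs with this seed, the 3 members therefore held nearly all counts.

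Relatives whose seed is shifted by 1 base share 6 bases with the family.
miR-19b-3p: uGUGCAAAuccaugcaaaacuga
miR-148a-3p: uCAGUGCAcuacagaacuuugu
miR-148b-3p: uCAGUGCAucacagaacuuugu
They are shown because they were far more abundant for part of the set. miR-148a-3p averaged 48173 CPM, miR-148b-3p 2080 CPM and miR-152-3p 236 CPM, against 6.66 CPM for miR-19b-3p and 1.32 CPM for miR-19a-3p. None of the 5 was called in any of the 5 tests. Of all miRNAs tested, 15.7% were called between ages in TG mice, 0.152% between ages in WT mice and 0.00% in the other tests. Outside the first of these, the lack of a call thus says little about these relatives. Among the 5, the largest estimate was that of miR-148a-3p between ages in WT mice. Its log2FC was 1.39 (SE 0.60, interval 0.22 to 2.57, adjusted p = 0.301 by edgeR). The lowest adjusted p among them between ages in TG mice was that of miR-148b-3p, with a log2FC of −0.43 (SE 0.18, adjusted p = 0.0958 by edgeR). miR-148a-3p varied from 9345 to 216108 CPM between libraries.

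The tissue label was checked against miRNAs typical of cell types, all of which had counts. The summed level of 3 neuronal miRNAs (miR-124-3p, miR-9-5p, miR-128-3p) ranged from 164715 to 362862 CPM, far above that of any other cell type list. The sum came mainly from miR-128-3p and miR-9-5p, with means of 164737 and 75707 CPM. miR-124-3p averaged 3122 CPM, below miR-126a-3p (7920 CPM) and miR-143-3p (6471 CPM) of the endothelium and vessel wall list. Between ages in TG mice, both choroid plexus miRNAs, miR-204-5p and miR-211-5p, were higher (log2FC 0.89 and 1.07), and both oligodendrocyte miRNAs, miR-219a-2-3p and miR-338-3p, were lower (−0.57 and −1.02). Of all miRNAs tested there, 7.47% were called higher and 8.27% lower. Of the 4 miRNAs of endothelium and vessel wall 1 was higher, of the 3 neuronal ones 1 was higher, of the 3 of blood cells 1 was higher and 1 lower, and of the 3 of microglia and leukocytes none was altered. In the other 4 tests no miRNA of these lists was called by edgeR. Of all miRNAs, these tests called 0.152% between ages in WT mice and 0.00% in the others. Between ages in WT mice the estimates had the same signs for miR-204-5p (log2FC 0.50), miR-211-5p (0.41), miR-219a-2-3p (−0.23) and miR-338-3p (−0.26). Their adjusted p by edgeR was 0.301, 0.347, 0.597 and 0.720.

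The summed choroid plexus level ranged from 290 to 749 CPM in TG mice at 3 months and from 638 to 1023 CPM at 6 months, and from 366 to 839 and 538 to 1740 CPM in WT mice. The summed oligodendrocyte level ranged from 1186 to 2299 CPM in TG mice at 3 months and from 741 to 1347 CPM at 6 months, and from 1043 to 1642 and 672 to 1664 CPM in WT mice. The estimates of the 3 members between ages in TG mice thus stood beside lower oligodendrocyte and higher choroid plexus levels, and the part of tissue composition in them was not tested. In bulk tissue, fewer cells of a type and less of a miRNA per cell cannot be told apart.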

How the data were processed

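Small RNA libraries of hippocampal CA1 from 40 mice were analysed. The labels list bcl2fastq (version 2.20.2), FastQC (0.11.5) and cutadapt (2.8). The authors trimmed the adapters, aligned the reads to mm10 with mirdeep2, which uses bowtie, counted them with its quantifier on miRBase entries, and deposited counts for 2128 pairs of a mature miRNA and a precursor and 52 spike-in entries, without normalization. A file of values normalized by the authors was not used. For each miRNA the precursor with the highest total was taken, which gave 1978 miRNAs, and spike-in entries were left out. Groups were taken from the sample titles. No 2 libraries of a group held identical counts.

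Each comparison was fitted over all miRNAs with edgeR (4.0.16, R 4.3.3): filterByExpr with a minimum count of 10 and a minimum total of 15, TMM, robust quasi-likelihood F test, Benjamini-Hochberg adjustment over all miRNAs tested. Approximate intervals are the estimate ± the normal quantile times the SE. Ratios had a prior count of 2 and were tested by exact permutation tests in scipy (1.17.1), or 100000 resamples where both groups held 10 or more mice, with adjustment over 24 tests, of which those of the arms were added after the counts were seen. Most similar miRNAs were the 3 with the highest Pearson correlation of log2 CPM (prior count 2, group means subtracted). The study names DESeq2 with RUVSeq without the kind or number of factors, so DESeq2 (1.42.0) without and with RUVr factors, other normalizations and filters, and fits with fewer libraries were alternatives. The fit was also run on simulated counts with known changes and no effect of depth on levels. The outcome of that run is not given here. The members, lists and tests were chosen with earlier results of these data known. The labels do not name cohorts beyond age and genotype, and the p-values of the group comparisons judge differences against the spread between these mice.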

Additional observations from a re-analysis of the deposited data

Results flagged for a closer look

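In 28 sets of values, each of 1 member, arm or ratio in 1 group of 4 to 10 mice, 3 libraries stood farther from the rest than Dixon's limit. Chance flags about 1 in 20 sets. In 3-month-old WT mouse 2, one of the mice whose genotype field differs from the title, miR-130b-5p was at 24.3 CPM, below the next value of 36.3 CPM in that group. In 3-month-old TG mouse 3, miR-130b-5p was at 74.3 CPM, above the next value of 46.2 CPM. In the same mouse the log2 ratio of miR-301a-3p to miR-130a-3p was −3.98, below the next value of −3.05, and it rested on 5 counts of miR-301a-3p and 92 of miR-130a-3p.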

How the results depend on the processing

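Of 718 values recomputed under alternatives, 701 kept their direction and their side of the threshold. The number of members called stayed at 0 except between ages in TG mice by DESeq2 with 1 or 2 RUVr factors, where 1 was called, miR-301a-3p, at −0.69 each; the cause was not tested. Those fits called 302 and 312 miRNAs in all, against 99 by edgeR and 220 with a spike-in factor. In WT mice they called 205 and 219, against 1 by edgeR, 2 by the library total, 25 by DESeq2 and 5 with a spike-in factor. Between genotypes 3 and 84 were called at 3 months and 3 and 6 at 6 months, against 0, and 5 for the interaction with 2 factors.

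A filter on a mean of 10 CPM left out miR-130b-3p and miR-301a-3p, and DESeq2 gave no adjusted p for miR-130b-3p with 2 RUVr factors in either comparison of genotypes, for miR-301a-3p with them at 6 months, and for both members without factors between ages in WT mice.

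Estimates without a call changed sign as follows, and the cause was not tested. Between ages in WT mice, miR-130a-3p was at −0.057 and miR-130b-3p at −0.022 by the library total, and miR-301a-3p was at 0.17 without the 2 WT mice whose fields differ or with these counted as TG. With depth as a covariate, miR-130a-3p was at 0.047 between ages in TG mice and miR-301a-3p at −0.032 between genotypes at 3 months. With a prior count of 0.5 the ratio of miR-301b-3p to miR-130b-3p was at −0.048 between ages in TG mice.

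With single libraries left out, no member was called, and the log2FC of miR-301a-3p between ages in TG mice lay between −0.80 and −0.58 (adjusted p 0.0511 to 0.222 by edgeR). That of miR-130a-3p between ages in WT mice lay between −0.037 and 0.17 and turned without 3-month-old WT mouse 3 (−0.021) or 4 (−0.037). Between genotypes at 3 months, miR-301a-3p lay between 0.095 and 0.51 (−0.039 to 0.73 under the other alternatives) and miR-130a-3p between 0.064 and 0.25 (0.034 to 0.42). The ratio of miR-301a-3p to miR-130a-3p between genotypes at 3 months lay between −0.11 and 0.057 and turned without WT mouse 2, and that of the miR-130b arms between ages in WT mice between −0.0027 and 0.27 and turned without WT mouse 1.

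Same-numbered mice of 2 groups were not treated as pairs, since not every pair's deviations from the group means correlated above 0.1. They did in 7 of 9 pairs between ages in TG mice (mean r 0.23), 2 of 5 in WT mice (0.035), 2 of 5 between genotypes at 3 months (0.0068) and 9 of 11 at 6 months (0.26), with lowest values of −0.52, −0.47, −0.67 and −0.56. In fits that block on the replicate number, no member was called in any comparison, miR-130a-3p was at −0.13 between ages in WT mice and miR-301a-3p at −0.039 between genotypes at 3 months, and 250 miRNAs in place of 1 were called between ages in WT mice and 124 in TG mice.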
